A study of Mus musculus with 2 samples.

Results

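The eicosanoid genes described here were 10 members of the prostaglandin and leukotriene pathway, chosen by name, among the 12584 genes measured. They are the cyclooxygenases Ptgs1 and Ptgs2, the terminal synthases Ptges, Hpgds and Tbxas1, the inactivating enzyme Hpgd, the receptors Ptger2 and Ptger4, and the leukotriene genes Alox5 and Alox5ap. All 10 were found in the deposited gene list. CD45+ leukocytes were sorted live from subcutaneous YUMM3.3 melanomas and profiled by droplet single-cell RNA sequencing of transcript 3′ ends, with molecules counted by unique molecular identifiers (UMIs). YUMM3.3 is a mouse melanoma line with an activated Braf gene and deleted Cdkn2a, and tumours grew in C57BL/6 mice until day 12 after injection. NTT denotes a tumour of the line never exposed to targeted therapy, and RTT a tumour of its derivative selected for resistance to BRAF inhibition and kept on dabrafenib in culture. Each group held 1 tumour and 1 library, 2975 cells in NTT and 4840 in RTT, so the line, the mouse, the sort and the library cannot be told apart in any comparison and no test was run.

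Prostanoid synthesis starts when phospholipases release arachidonic acid from membranes and a cyclooxygenase converts it to an unstable intermediate that terminal synthases turn into prostaglandin E2 (PGE2), prostaglandin D2 or thromboxane. Ptgs1 encodes COX1, usually constitutive, and Ptgs2 encodes COX2, induced by inflammatory signals in neutrophils, monocytes and macrophages. Outside this route, 5-lipoxygenase oxidises the same fatty acid to leukotrienes, and PGE2 acts on leukocytes largely through the receptors EP2 and EP4, which raise cyclic AMP (cAMP).

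Over all cells, the levels of these genes moved apart between the libraries. Levels are given as CPM, the UMIs of a gene per 1000000 UMIs summed over the cells in question. Ptgs1 stood at 8.05 CPM in NTT and 46.0 CPM in RTT, a log2 ratio of RTT over NTT of 2.52 (exact 95% interval 2.28 to 2.76). Ptgs2 went the other way, from 195 CPM to 29.8 CPM, a log2 ratio of -2.71 (-2.80 to -2.62). These and all later intervals reflect counting error alone. A gene was called past 2-fold where it had at least 500 UMIs over both libraries and a log2 ratio of 1 or more in either direction. Of the 10 members, 7 reached that minimum, 4 of them past 2-fold higher in RTT (Ptgs1, Hpgds, Hpgd and Tbxas1), 1 lower (Ptgs2) and 2 within (Ptger4 and Alox5ap). Among all 8220 genes at that depth, 8.18% were past 2-fold higher and 9.6% lower. Ptges, Ptger2 and Alox5 lay under the minimum and were not called. The median log2 ratio of the 7 was 1.07, against 0.10 over all genes.

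The cell populations were those named by the authors, 16 in all, and differed in share between the tumours. TAM_C1q, a tumour-associated macrophage population, held 17 NTT and 2001 RTT cells, whereas Monocyte_1 held 984 NTT and 99 RTT cells and Infl_Mono held 620 and 94. The authors clustered on the most variable genes, and members may be among these, so their levels in one population against another are descriptions. A ratio within a population was computed only with at least 50 cells in each library, which left 8 populations, and a gene was called there with at least 200 UMIs. Leading genes did not always carry the fixed markers of the label. Ctsk_Macro, with 280 cells found in RTT alone, had 5 osteoclast markers among its 10 leading genes, and TAM_cycling had a plasma cell gene there. Macrophages were therefore compared population by population and not merged. Every macrophage population, not Ctsk_Macro alone, had 0 of the macrophage markers among its 10 leading genes. Monocyte_1 also had a plasma cell gene there and Neutro a mast cell gene, yet monocytes are merged in some results below. Some cells named as monocytes, neutrophils or NK_cells carried much macrophage RNA. Outside macrophage populations, 759 NTT and 144 RTT cells had the complement gene C1qa at 1000 CPM or more (called C1qa-high), 585 of them in NTT Monocyte_1. Where a ratio moved by more than its interval without such cells, its value without them is given, in most cases beside the main ratio. Orders of levels are over the 21 units of a population and a library with at least 50 cells unless smaller units are named. The libraries shared 7 cell barcodes.

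The promoters of both cyclooxygenases and of Hpgds, to which most of the results below belong, are shown for orientation, from RefSeq on GRCm38.p6, 250 bases before to 50 bases after the annotated start, with capitals marking matches to 4 short motifs on either strand.
Ptgs1, chr2:36230176-36230475, plus strand: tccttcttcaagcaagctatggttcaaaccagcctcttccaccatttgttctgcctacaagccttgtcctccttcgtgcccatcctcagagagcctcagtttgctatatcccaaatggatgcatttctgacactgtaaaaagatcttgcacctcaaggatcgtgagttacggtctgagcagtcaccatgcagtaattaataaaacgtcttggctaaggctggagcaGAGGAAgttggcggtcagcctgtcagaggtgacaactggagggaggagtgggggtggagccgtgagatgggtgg
Ptgs2, chr1:150099781-150100080, plus strand: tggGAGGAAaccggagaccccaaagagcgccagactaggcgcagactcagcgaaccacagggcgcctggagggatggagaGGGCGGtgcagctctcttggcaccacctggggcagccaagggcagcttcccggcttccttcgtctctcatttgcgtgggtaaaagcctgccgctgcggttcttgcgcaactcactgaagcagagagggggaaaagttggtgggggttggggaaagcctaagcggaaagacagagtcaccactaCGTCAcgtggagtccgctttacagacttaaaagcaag
Hpgds, chr6:65144681-65144980, minus strand: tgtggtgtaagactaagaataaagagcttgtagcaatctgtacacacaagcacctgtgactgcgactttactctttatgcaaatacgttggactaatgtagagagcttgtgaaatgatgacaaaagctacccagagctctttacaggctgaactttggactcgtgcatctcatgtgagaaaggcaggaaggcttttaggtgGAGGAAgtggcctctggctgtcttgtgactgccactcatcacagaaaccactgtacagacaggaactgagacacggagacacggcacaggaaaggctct
GAGGAA, the core bound by the myeloid factor PU.1, began 24 bases before the start in Ptgs1 (position -24), at -49 in Hpgds and at -247 in Ptgs2, and occurs in 28.3% of the 32817 mouse promoters of that length. CGTCA, the core of the cAMP response element, was present in Ptgs2 at position 14 and occurs in 20.8% of promoters. GGGCGG, the GC box, was present in Ptgs2 at -170 and occurs in 35.6%. TATAA was in none of the 3 windows and occurs in 24.9% of all promoters. These matches describe the letters of the windows only, since no motif search tells whether a factor is bound.

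Ptgs1 (chr2:36230426-36252272, plus strand, GENCODE positions on GRCm38) was highest, among units of at least 50 cells, in the macrophage populations that made up most of the RTT library. The RTT TAM_C1q cells held 65.0 CPM (61.4 to 68.8) and the RTT TAM_cycling cells held 52.2 CPM (48.2 to 56.4), with intervals that did not overlap. Next came NTT Macro with 40.3 CPM (26.8 to 58.3), whose interval overlapped that of RTT TAM_cycling. Among smaller units, the 29 RTT Neutro cells held 56.0 CPM (28.9 to 97.8). No UMI of Ptgs1 was found in DC3 or cDC1 cells of either library, with exact upper limits of 8.93 CPM in RTT cDC1 and 13.0 CPM in RTT DC3. TAM_C1q and TAM_cycling together carried most of the Ptgs1 UMIs in RTT, 57.7% and 30.9%, although they held 40.8% and 27.3% of all UMIs of that library. The highest level of any unit over 10 cells lay in 24 RTT Myofibrobl cells, whose leading genes include Col3a1 and Sparc, which held 78 Ptgs1 UMIs, or 222 CPM (176 to 278).

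Within populations, Ptgs1 had enough UMIs for a call in TAM_cycling, and in none of the other 7 populations compared. In TAM_cycling it stood at 19.0 CPM in NTT (36 UMIs in 103 cells) and at 52.2 CPM in RTT (636 UMIs in 947 cells), a log2 ratio of 1.46 (0.98 to 1.99). Hpgd was the other of the 6 members past the minimum there to be called higher and 0 were called lower, against 4.78% of all genes higher and 4.34% lower. Leaving out the 5% of cells with the most UMIs brought the Ptgs1 ratio in TAM_cycling to 0.74, under 2-fold. Marker levels of TAM_cycling also differed between the libraries. Its plasma cell markers summed to 3950 CPM in NTT and 271 CPM in RTT, and its osteoclast markers to 1257 and 135 CPM. The macrophage markers summed to 27366 and 37900 CPM. The part of such differences in the TAM_cycling ratios given here and below was not tested. In TAM_Spp1, a population with Cxcl1, Cxcl3 and Arg1 among its leading genes, Ptgs1 differed little, with 16.5 CPM in NTT and 20.2 CPM in RTT (0.29, -0.47 to 1.13). In Infl_Mono, all 16 Ptgs1 UMIs of RTT lay in the 45 C1qa-high cells and 0 in the other 49, whereas in NTT 0 lay in the 145 C1qa-high cells and 25 in the other 475. The Infl_Mono ratio of Ptgs1 was 1.77 (0.77 to 2.73), or 0 against the floor in RTT without C1qa-high cells. After thinning every cell to 2000 UMIs, 10.3% of RTT TAM_C1q cells had a Ptgs1 UMI (9.03 to 11.7%), against 32.3% unthinned, and 0.61% of NTT NK_cells (0.0154 to 3.35%).

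**Figure D1:**
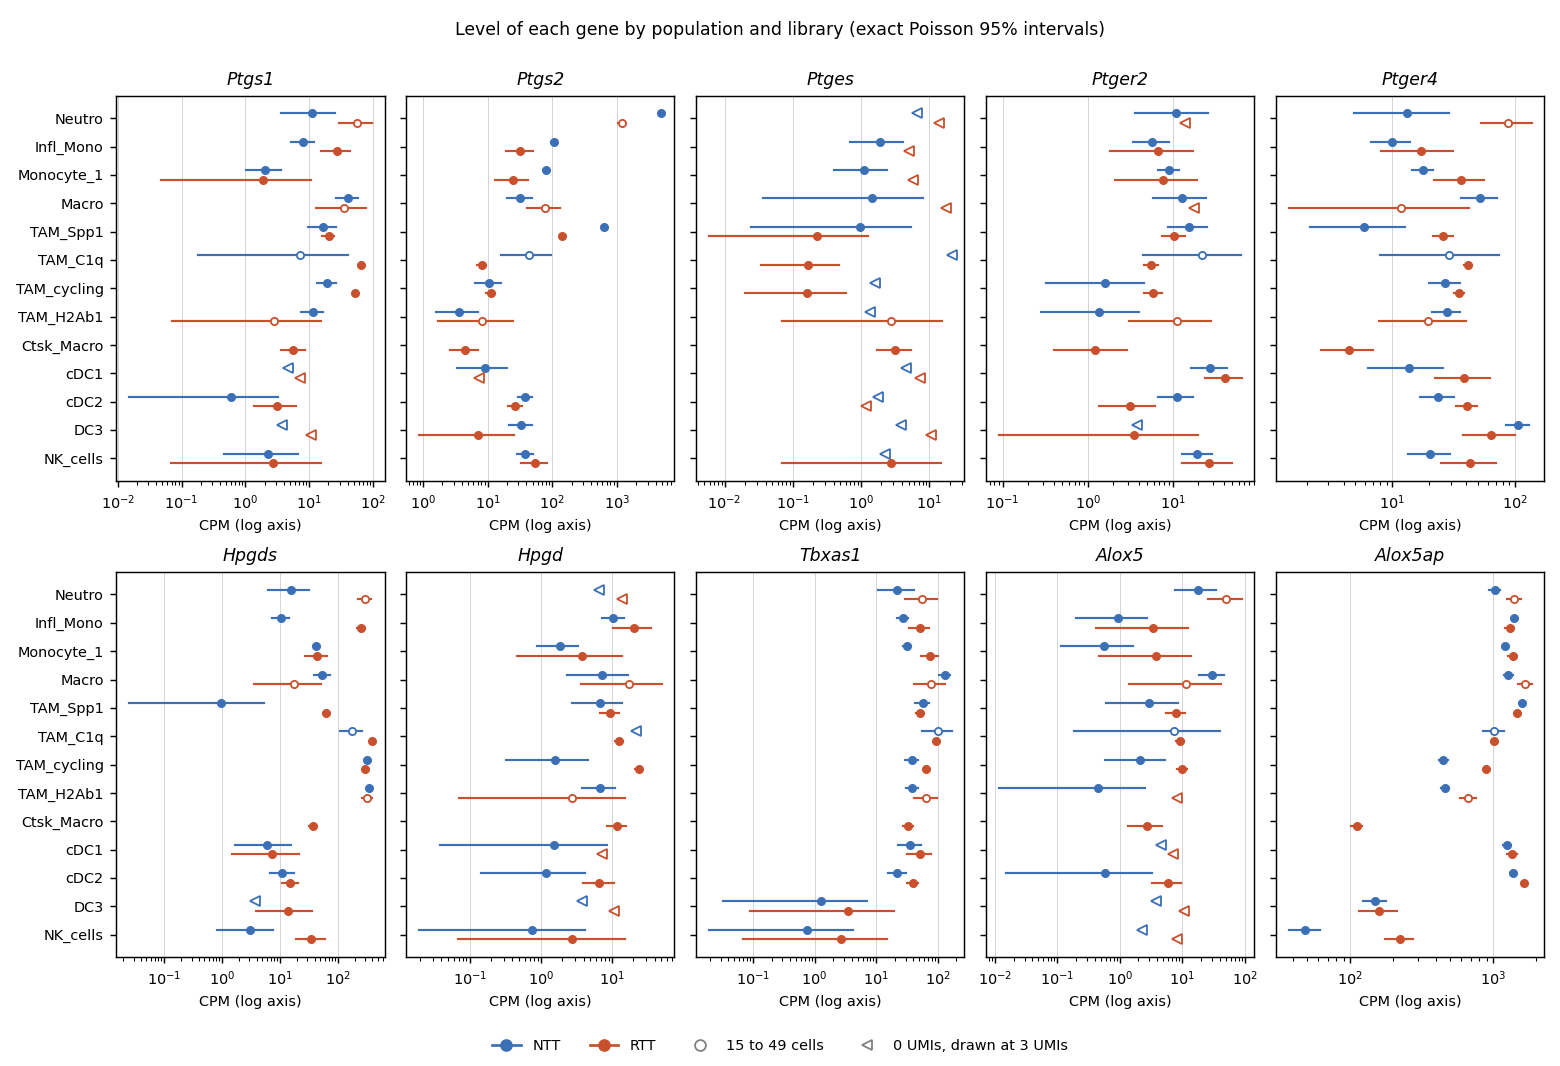
CPM on a log axis (x) of the 10 genes, 1 panel each, in 13 populations (y) of the NTT (blue) and RTT (red) libraries, with exact Poisson 95% intervals; open circles stand for units of 15 to 49 cells, smaller units are not drawn, and triangles mark 0 UMIs at the level of 3 UMIs. Ptgs2 is highest in neutrophils and TAM_Spp1 in both libraries, Ptgs1 and Hpgds are highest in TAM_C1q of RTT, and Alox5ap lies between 450 and 1672 CPM outside Ctsk_Macro, DC3 and NK_cells.

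Ptgs2 (chr1:150100031-150108227, plus strand) was concentrated in neutrophils and in TAM_Spp1. The 91 NTT Neutro cells held 2209 UMIs, or 4875 CPM (4674 to 5082), with a median of 17 UMIs per cell, and the 29 RTT Neutro cells held 257 UMIs, or 1199 CPM (1057 to 1355). Neutrophils made up 2.31% of the UMIs of the NTT library but carried 57.6% of its Ptgs2. In RTT, TAM_Spp1 carried the largest share, 46.4%, and neutrophils 19.3%. Ptgs2 is itself among the 10 leading genes of Neutro, so its height there is a description. RTT had too few neutrophils for a ratio, and 15 of the 29 were C1qa-high, at 556 CPM, against 4340 CPM (3690 to 5072) in the other 14. The 78 NTT neutrophils that were not C1qa-high held 5662 CPM (5421 to 5911).

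Next to neutrophils, TAM_Spp1 held the highest Ptgs2 level in each library, 641 CPM (593 to 692) in NTT and 142 CPM (131 to 154) in RTT, a log2 ratio of -2.17 (-2.33 to -2.01). It was the 1 member of 4 past the minimum called lower there, and Hpgds the 1 called higher, in a population in which 12.5% of all genes were past 2-fold lower and 12.2% higher. A UMI of Ptgs2 was found in 33.0% of thinned NTT cells (26.4 to 40.1%) and in 8.53% of thinned RTT cells (6.58 to 10.8%). Unthinned, the shares were 40.4% and 12.7%. Few cells carried the RTT signal, as 22 of 719 cells had at least 5 Ptgs2 UMIs and held 79.6% of them. These 22 cells held the 5 neutrophil markers at a summed 1363 CPM, against 69.7 CPM in the other 697 RTT cells. In NTT, 39 of 193 cells had at least 5 UMIs and held 86.8% of Ptgs2, with neutrophil markers at 176 CPM, against 240 CPM in the other cells. The part of neutrophil RNA in these values was not tested.

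Both monocyte populations with enough cells for a ratio held less Ptgs2 in RTT when all their cells were counted. Infl_Mono went from 106 CPM (334 UMIs) to 32.3 CPM (19 UMIs), a log2 ratio of -1.72 (-2.47 to -1.05), and there Ptgs2 was 1 of 2 members past the minimum, where 9.78% of all genes were called lower and 5.15% higher. Monocyte_1 went from 79.0 CPM (428 UMIs) to 24.7 CPM (13 UMIs), a log2 ratio of -1.68 (-2.60 to -0.89), and 9.87% of its genes were called lower. The size of both differences depended on which cells were counted. Without C1qa-high cells the ratios were -0.42 in Infl_Mono and -1.17 in Monocyte_1, and in cells with at least 1500 detected genes they were -2.86 and -3.15. The Infl_Mono levels without C1qa-high cells were 97.9 CPM (85.6 to 111) in NTT and 73.4 CPM (40.1 to 123) in RTT, with overlapping intervals. With each cell weighted equally the Infl_Mono ratio was -0.69, and without the top cell of each library the Monocyte_1 ratio was -2.49. A lymphoid population, NK_cells, led by genes of T and NK cells, was set beside these values. It held Ptgs2 at 38.4 CPM in NTT (51 UMIs in 178 cells) and 54.2 CPM in RTT (20 UMIs in 51 cells). All 20 RTT UMIs lay in 3.92% of the RTT NK_cells. After thinning, 4.08% of RTT Monocyte_1 cells (1.12 to 10.1%) had a Ptgs2 UMI, against 4.88% of RTT NK_cells (0.60 to 16.5%), at median depths of 4823 and 3967 UMIs, with overlapping intervals. In NTT, 9.67% of Monocyte_1 cells (7.86 to 11.7%) had one, against 1.83% of NK_cells (0.38 to 5.25%), with median depths of 5074 and 5359 UMIs. Unthinned, the 4 shares were 5.05%, 3.92%, 18.4% and 6.74%. Neutrophil markers summed to 689 CPM in RTT NK_cells, 51.4 CPM in RTT Monocyte_1 and 47.5 CPM in RTT Infl_Mono, and to 171, 189 and 280 CPM in the NTT cells of these populations, and their part in the Ptgs2 values was not tested.

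Ptgs2 was also counted against S100a9, which encodes a calgranulin abundant in neutrophils. Neutrophils held 13.1 Ptgs2 UMIs per 100 S100a9 UMIs in NTT and 17.6 in RTT. The ratio was 164 in NTT Infl_Mono, 152 in NTT Monocyte_1, and 679 and 354 in TAM_Spp1 of NTT and RTT. In RTT monocytes S100a9 was nearly missing, with 19 Ptgs2 UMIs against 1 S100a9 UMI in Infl_Mono and 13 against 2 in Monocyte_1. NK_cells held 48.1 in NTT and 17.4 in RTT. Among the other populations, TAM_C1q of RTT, the largest of all, held Ptgs2 at 8.06 CPM (6.81 to 9.47). TAM_cycling held 10.5 CPM in NTT and 11.2 CPM in RTT, from 20 and 136 UMIs, under the minimum, and its ratio ran from -2.19 without the deepest 5% of cells to 1.04 without the top cell. cDC2 held 38.1 and 27.0 CPM (-0.50, -1.01 to 0.01, or 0.11 after thinning).

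**Figure D2:**
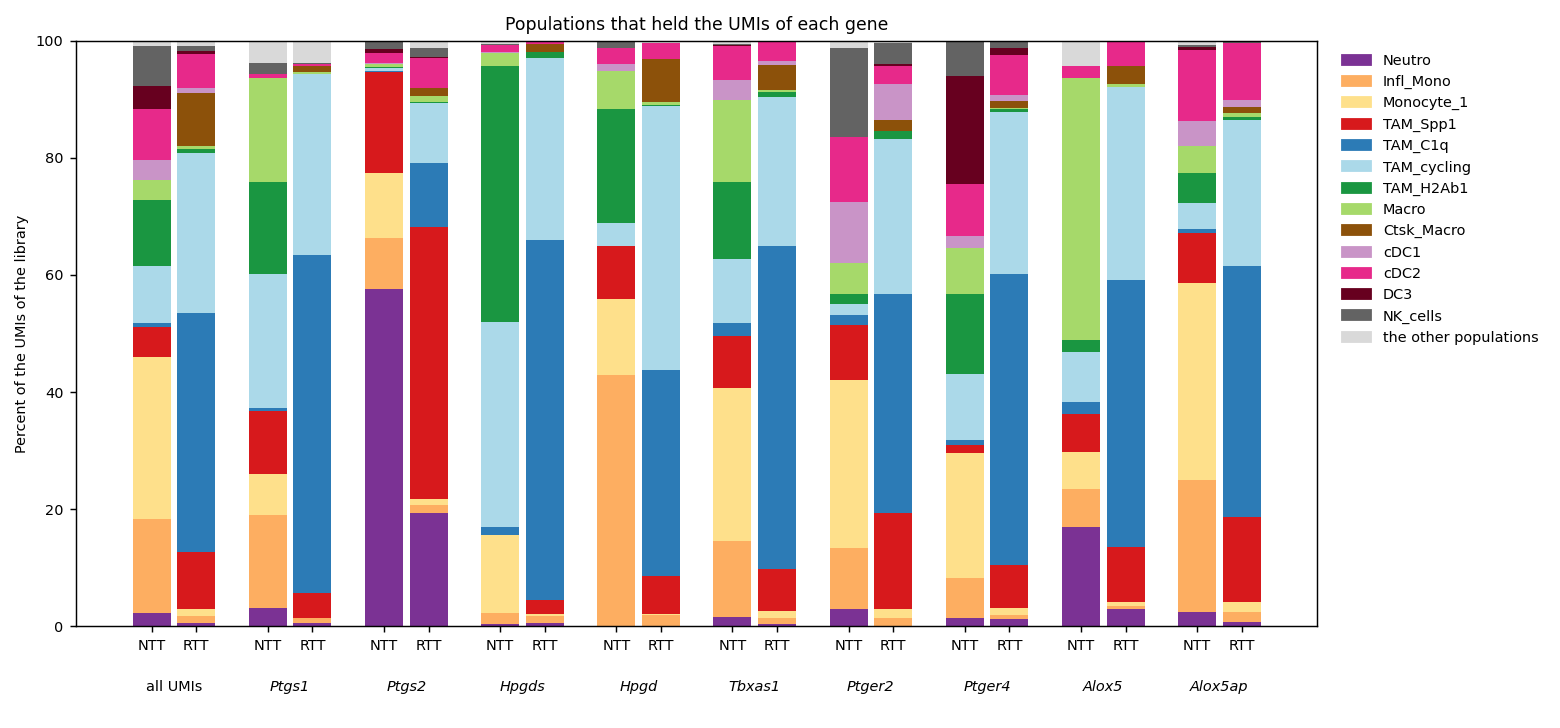
Percent of the UMIs of each gene (y) that lay in each population (colours), for the NTT and RTT libraries side by side, with the share of all UMIs in the first pair of bars. Neutrophils hold 57.6% of Ptgs2 UMIs in NTT and TAM_Spp1 46.4% in RTT, whereas TAM_C1q holds 57.7% of Ptgs1 and 61.5% of Hpgds UMIs in RTT.

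Cells with UMIs of both isoenzymes, Ptgs1 and Ptgs2, were fewer than independent detection would give in NTT. In RTT they were more before thinning but not after it. In NTT, 107 cells had a Ptgs1 UMI and 520 a Ptgs2 UMI, and 9 had both, where independent detection within each population would give 19.1. In RTT, 1074 and 304 cells had a UMI, and 73 had both, against 61.6. After thinning to 2000 UMIs the counts were 0 against 3.78 in NTT and 7 against 7.78 in RTT, and no test was made of these differences.

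Hpgds (chr6:65117293-65144908, minus strand), the haematopoietic prostaglandin D synthase, was highest in some macrophage populations of both tumours, among units of at least 50 cells. Other macrophage populations held little of it, with 0.97 CPM in NTT TAM_Spp1 and 37.9 CPM in RTT Ctsk_Macro. It stood at 390 CPM (381 to 399) in RTT TAM_C1q, 347 CPM (323 to 372) in NTT TAM_H2Ab1, 323 CPM in NTT TAM_cycling and 295 CPM in RTT TAM_cycling. Over all cells it went from 89.2 CPM to 258 CPM, a log2 ratio of 1.53 (1.46 to 1.61). That value was 2.14 without the 5% of cells with the most UMIs, 2.17 after thinning and 2.23 with each cell weighted equally. Within TAM_cycling the level was close in both libraries (-0.14, -0.26 to -0.01). When the difference of 169 CPM over all cells was divided between population shares and levels within populations, with the mean of both libraries as weights, 101 CPM went with the shares (85.5 to 116) and 68.3 CPM with the levels. TAM_C1q alone gave 113 CPM of the part from shares.

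The widest ratios of Hpgds within populations lay in TAM_Spp1, Infl_Mono and NK_cells, and macrophage markers differed between the libraries in all 3. In TAM_Spp1, Hpgds went from 1 UMI in 193 cells (0.97 CPM) to 275 UMIs in 719 cells (63.1 CPM), a log2 ratio of 6.02 (3.53 to 11.3). It was 2.72 after thinning, and 4.34 with the top cell of each library left out, against the floor of 3 UMIs in NTT in both cases. After thinning, 0 of 191 NTT cells had a UMI (exact upper limit 1.91%), against 8.25% of 703 RTT cells (6.32 to 10.5%). The 7 macrophage markers summed to 7920 CPM in NTT TAM_Spp1 and to 24663 CPM in RTT TAM_Spp1, and their part in the result was not tested. In Infl_Mono the level was 10.5 CPM in NTT (33 UMIs) and 251 CPM in RTT (148 UMIs), a log2 ratio of 4.58 (4.03 to 5.17). The same 7 markers summed to 7679 CPM in NTT and 34423 CPM in RTT Infl_Mono. In RTT, 147 of these 148 Hpgds UMIs lay in the 45 C1qa-high cells, and without C1qa-high cells in either library the ratio was 0.29. In NTT, the 145 C1qa-high cells of Infl_Mono held Hpgds at 28.6 CPM and the other 475 at 4.28 CPM. RTT neutrophils showed the same division, with 63 of 63 Hpgds UMIs in the 15 C1qa-high cells, and so did RTT NK_cells, with 12 of 13 in 4 cells. In NK_cells Hpgds stood at 3.01 CPM in NTT and 35.3 CPM in RTT, and the 7 macrophage markers at 415 and 3502 CPM. Monocyte_1 held 42.8 and 43.8 CPM (0.03, -0.66 to 0.65), and -1.20 without C1qa-high cells. Ptgs1 and Hpgds were found together in 924 RTT cells, against 840 for independent detection within populations, and in 157 against 140 after thinning.

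Tbxas1 (chr6:38875404-39084585, plus strand), the thromboxane synthase, was broadly present in myeloid cells and near 0 in DC3 and NK_cells. It was highest in NTT Macro, at 130 CPM (104 to 159), with RTT TAM_C1q next among units of at least 50 cells, at 93.2 CPM (88.8 to 97.7). It went from 33.0 to 69.0 CPM over all cells (1.07, 0.94 to 1.19). In Monocyte_1 it was past 2-fold higher, 31.2 CPM in NTT and 74.2 CPM in RTT (1.25, 0.71 to 1.76), where 2.4% of genes were called higher. Without C1qa-high cells that ratio was 0.56. In Infl_Mono it was 26.7 and 50.9 CPM (0.93, 0.28 to 1.55), or 0.42 without such cells. In TAM_Spp1 it was 56.4 and 51.2 CPM (-0.14, -0.56 to 0.30). In TAM_cycling it was 37.4 and 64.7 CPM (0.79, 0.44 to 1.16), and past 2-fold without the deepest 5% of cells (1.59) and after thinning (1.78). DC3 held 1 UMI in each library.

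Ptges (chr2:30889471-30929863, minus strand), the inducible PGE2 synthase that acts after COX2, was barely found in these leukocytes. It had 14 UMIs in NTT (0.71 CPM) and 22 in RTT (0.49 CPM), a log2 ratio of -0.54 (-1.57 to 0.54). In NTT, 6 UMIs lay in Infl_Mono and 6 in Monocyte_1. In RTT, 13 of the 22 lay in Ctsk_Macro, at 3.20 CPM (1.70 to 5.47). Among the 520 NTT cells with Ptgs2, 3 also had Ptges.

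Hpgd (chr8:56294585-56321043, plus strand), the dehydrogenase that inactivates prostaglandins, was low in every population, with RTT TAM_cycling the highest of those with at least 50 cells at 23.9 CPM (21.2 to 26.8). Over all cells it went from 3.92 CPM (77 UMIs) to 14.4 CPM (646 UMIs), a log2 ratio of 1.88 (1.54 to 2.24). In TAM_cycling there were 3 UMIs in NTT and 291 in RTT, a ratio of 3.92 (2.36 to 6.20). That ratio was 1.93 without the deepest 5% of cells. After thinning, 0 of 103 NTT cells had a UMI, against 39 of 947 RTT cells. The thinned ratio of 0.74 was taken against the floor of 3 UMIs in NTT and is a lower bound. The size of the difference is therefore not settled at this depth. Infl_Mono held 43% of the NTT UMIs, 33 of 77, at 10.5 CPM, against 20.4 CPM in RTT (0.96, -0.13 to 1.95).

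**Figure D3:**
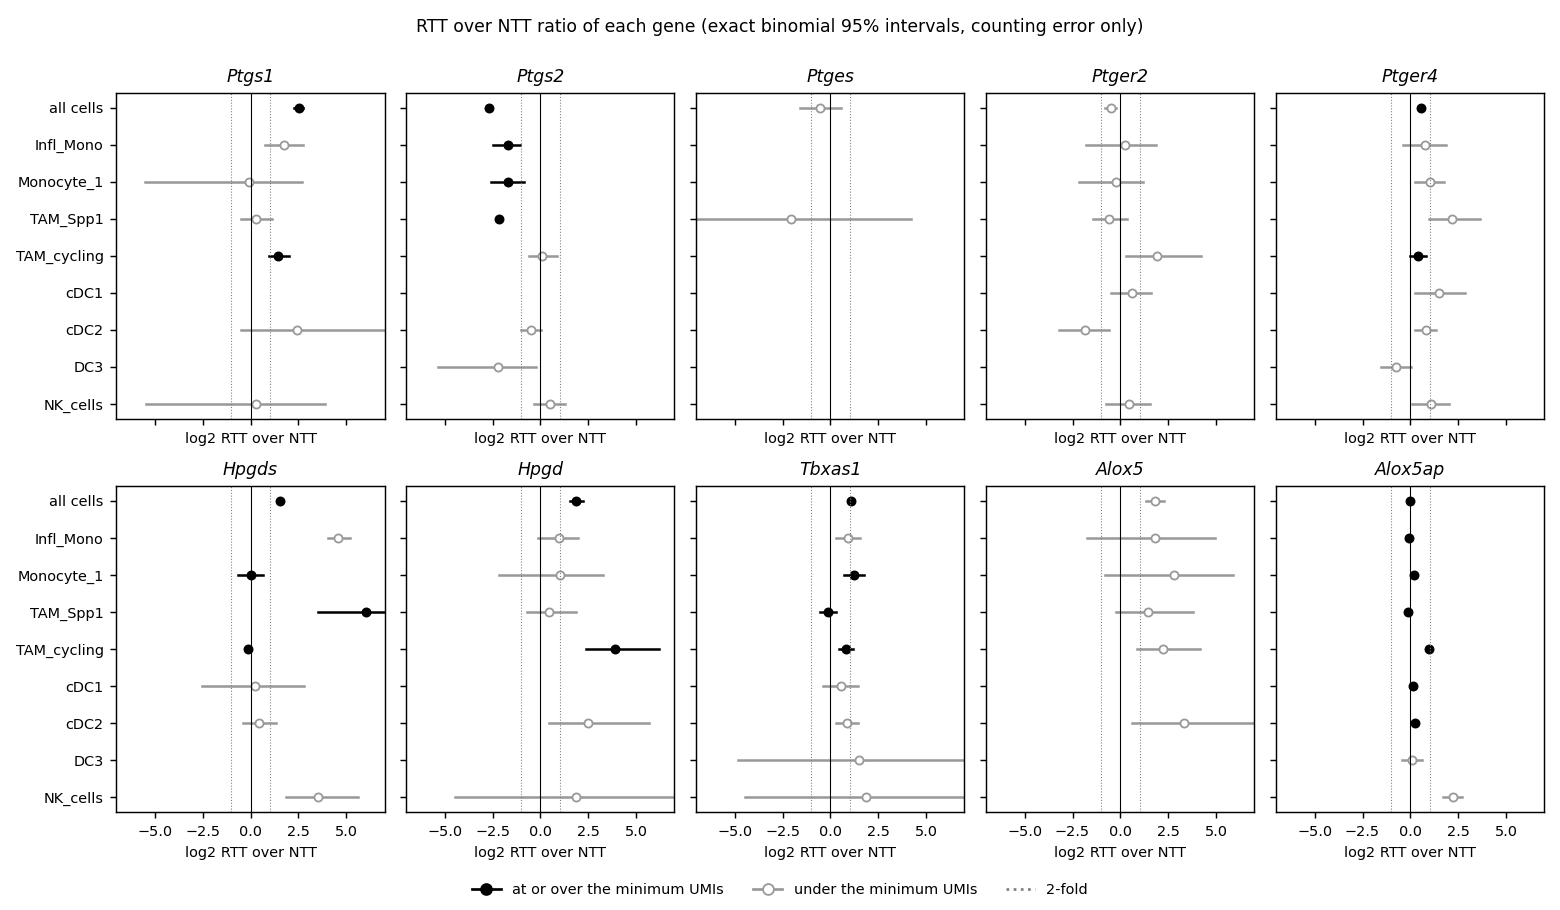
Log2 ratio of RTT over NTT (x) for the 10 genes, 1 panel each, over all cells and within the 8 populations with at least 50 cells in each library (y), with exact binomial 95% intervals drawn up to 7 on either side. Filled black points reach the minimum UMIs, open grey points do not, a gene with 0 UMIs in either library is not drawn, and dotted lines mark 2-fold. Ptgs2 lies left of -1 over all cells and in both monocyte populations and TAM_Spp1, and Alox5ap stays within 2-fold wherever it reaches the minimum.

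The PGE2 receptors had their highest levels in different dendritic cells. Ptger4 (chr15:5206661-5244187, minus strand), which encodes EP4, was highest in DC3, the dendritic cells led by Fscn1 and Ccr7, at 105 CPM (83.8 to 130) in NTT and 63.6 CPM (37.7 to 100) in RTT, a log2 ratio of -0.73 (-1.55 to 0.02) that turned to 0.36 after thinning. Among smaller units, the 29 RTT Neutro cells held 88.7 CPM (53.4 to 138), above RTT DC3 and below NTT DC3, with an interval that overlapped both. Over all cells it went from 22.9 to 34.2 CPM (0.58, 0.42 to 0.73), and of this difference of 11.3 CPM, 10.3 CPM went with levels within populations. Its ratio was above 0 with an interval clear of 0 in cDC2 (23.4 and 40.7 CPM, 0.79, 0.25 to 1.36), in Monocyte_1 (17.7 and 36.2 CPM, 1.03, 0.24 to 1.75) and in TAM_Spp1. In TAM_Spp1 it went from 5.83 CPM (6 UMIs) to 25.9 CPM (113 UMIs), a ratio of 2.15 (0.98 to 3.63), or 0.98 after thinning. cDC1 held 9 and 16 UMIs (1.49, 0.23 to 2.85) and NK_cells 27 and 16 (1.09, 0.10 to 2.04). The remaining values outside DC3 were 26.9 and 34.9 CPM in TAM_cycling (0.38, -0.05 to 0.82) and 9.86 and 17.0 CPM in Infl_Mono (0.78, -0.41 to 1.85), where the ratio was -0.84 without C1qa-high cells. Each of the 5 populations with intervals clear of 0 had fewer than 200 UMIs of the gene, so none was called.

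Across the dendritic and lymphoid populations few members had the depth for a call. In cDC1 and cDC2, Alox5ap was the 1 member to reach 200 UMIs and lay within 2-fold, where 1.91% and 4.48% of all genes were called higher and 4.61% and 6.71% lower. In DC3 and NK_cells 0 members reached it, where 2.61% and 2.11% of genes were called higher and 5.45% and 5.51% lower. In cDC1, cDC2 and DC3 merged, Ptger4 and Alox5ap reached it and both lay within 2-fold (4.83% of genes higher and 7.56% lower). In merged monocytes, 4 members reached it, with Hpgds and Tbxas1 past 2-fold higher, Ptgs2 lower and Alox5ap within (2.97% of genes higher and 6.74% lower). Without C1qa-high cells these calls ended, at -0.58 for Hpgds, 0.55 for Tbxas1 and -0.85 for Ptgs2, and Alox5ap went from 0.08 to 0.39.

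Ptger2 (chr14:44988195-45003820, plus strand), which encodes EP2, was highest in cDC1, the dendritic cells that cross-present antigen, at 27.5 CPM (16.3 to 43.5) in NTT and 41.2 CPM (24.0 to 65.9) in RTT (0.58, -0.47 to 1.62, or -0.47 after thinning). NK_cells followed with 27.1 CPM in RTT and 19.6 CPM in NTT, and the intervals of these 4 values overlapped. It went from 8.71 to 6.11 CPM over all cells (-0.51, -0.79 to -0.23), from 171 and 273 UMIs. In cDC2 it was 11.1 CPM (19 UMIs) in NTT and 3.13 CPM (8 UMIs) in RTT, a log2 ratio of -1.83 (-3.23 to -0.57). In TAM_cycling it was 1.58 CPM (3 UMIs) in NTT and 5.91 CPM (72 UMIs) in RTT, a ratio of 1.90 (0.30 to 4.21). Before thinning, both receptors were found together in 24 NTT and 71 RTT cells, against 15.7 and 59.0 for independent detection within populations. After thinning, 1 NTT cell and 4 RTT cells had both, against 1.51 and 4.26, so the excess was not seen at equal depth. These differences were not tested.

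The leukotriene genes differed in how widely they were detected. Alox5ap (chr5:149264767-149288153, plus strand), which encodes the activating protein FLAP, was found at 987 CPM in NTT and 976 CPM in RTT (-0.02, -0.04 to 0.01). The balance hid opposite parts, since population shares took away 155 CPM (-155, interval -193 to -117) and levels within populations added 144 CPM. It was highest among units of at least 50 cells in RTT cDC2 (1639 CPM, 1589 to 1689) and in TAM_Spp1 (1582 CPM in NTT and 1461 CPM in RTT), and low in Ctsk_Macro (111 CPM) and DC3 (150 and 159 CPM). Infl_Mono held 1390 and 1311 CPM (-0.08, -0.20 to 0.03), or 0.64 without C1qa-high cells. TAM_cycling held 450 CPM in NTT and 893 CPM in RTT (0.99, 0.89 to 1.09). In NK_cells it went from 48.2 to 222 CPM (2.21, 1.72 to 2.70), where 43 of the 82 RTT UMIs lay in 4 C1qa-high cells, and without these cells the ratio was 1.31. Alox5 (chr6:116410077-116461178, minus strand), the 5-lipoxygenase itself, had 47 UMIs in NTT and 369 in RTT (2.39 and 8.25 CPM, 1.79, 1.34 to 2.26). The ratio was 2.93 after thinning. In NTT, 21 of the 47 UMIs lay in 100 Macro cells (30.2 CPM), and in RTT, 168 of 369 lay in TAM_C1q (9.21 CPM). Mast cells, a classic source of both prostaglandin D2 and leukotrienes, numbered 5 in all and held 10 Hpgds UMIs and 66 Alox5ap UMIs.

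The share of each difference over all cells that went with population shares varied by gene. For Ptgs2, -55.9 CPM of -166 CPM went with shares (-63.8 to -47.9) and -110 CPM with levels, and neutrophils alone gave -55.5 and -51.2 CPM of these parts. The part of Ptgs2 from shares was -83.1 CPM with NTT levels as weights and -28.7 CPM with RTT levels. For Ptgs1, 16.4 CPM of 38.0 CPM went with shares (13.1 to 19.7) and 21.5 CPM with levels. With NTT levels as weights the part from shares was 3.08 CPM and with RTT levels 29.8 CPM, and the NTT level of TAM_C1q in that sum comes from 1 UMI in 17 cells. For Tbxas1, 22.4 CPM of 36.1 CPM went with shares (10.9 to 33.9). For Hpgd, 1.96 CPM of 10.5 CPM did so (0.60 to 3.33), or -1.42 CPM with NTT levels as weights.

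Genes with a pattern most like each member were found by the correlation of log2(CPM + 10) over the 21 units of a population and a library with at least 50 cells, which share libraries and depth. For Ptgs1 these were Cltc, Itsn1 and Stab1 (r = 0.90 each). For Ptgs2 they were Junb, Tnfrsf23 and Rgcc (r = 0.95, 0.95 and 0.94). For Hpgds they were Hebp1, Prune2 and Ms4a14 (r = 0.94, 0.93 and 0.93). For Tbxas1 they were Lrrc25, P2ry6 and Ppp1r21 (r = 0.90, 0.89 and 0.89), and for Alox5ap Eps8, Cysltr1 and Cybc1 (r = 0.91, 0.91 and 0.90). Cysltr1 encodes a receptor for cysteinyl leukotrienes. For Hpgd the values were lower, with Evi5, Fez2 and Stab1 (r = 0.86, 0.81 and 0.79), as they were for Ptger4, with Ctdnep1, Ssu72 and Poglut1 (r = 0.78, 0.77 and 0.76).

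Beyond the 10 members, a list of 52 other eicosanoid genes was examined, of which 44 were in the matrix and 26 had at least 500 UMIs. Over all cells, 4 of the 26 were past 2-fold higher in RTT, 4 were lower and 18 were within, with a median log2 ratio of 0.37 against 0.10 over all genes, of which 8.18% were called higher and 9.6% lower. Ltc4s, which makes leukotriene C4 from the product of Alox5, was the highest, at 14.1 CPM in NTT and 55.3 CPM in RTT (1.97, 1.79 to 2.16). Mgst3, a related glutathione transferase, stood at 1.41, the PGE2 synthase Ptges2 at 1.13 and the phospholipase Pla2g12a at 1.02. Cyp4f18, which inactivates leukotriene B4, was the lowest, at 225 and 69.2 CPM (-1.70, -1.77 to -1.64), followed by Pparg (-1.27), Pla2g7 (-1.25) and the prostanoid exporter Abcc4 (-1.23). Cytosolic phospholipase Pla2g4a stood at 77.1 and 98.6 CPM (0.36, 0.27 to 0.44). By the heading each gene was listed under, those past 2-fold were 1 higher (Pla2g12a) and 1 lower (Pla2g7) of 6 under arachidonate release. Whether each of these enzymes releases arachidonate was not tested. The others were 1 higher of 5 in prostanoid synthesis, 2 higher of 6 leukotriene and lipoxygenase enzymes, 0 of 2 leukotriene receptors and 2 lower of 6 in transport and inactivation. Pparg, the 1 listed prostanoid receptor that reached the minimum, was lower.

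A list of 16 genes that cAMP signalling is known to induce, several of them also induced by other signals, was read beside the receptors. Of the 14 that reached 500 UMIs, 0 were past 2-fold higher in RTT, 11 were lower and 3 within, with a median log2 ratio of -1.49, or -1.34 without neutrophils, where 8.18% of all genes were called higher and 9.6% lower. Nr4a3 went from 55.6 to 6.44 CPM (-3.11, -3.30 to -2.92) and was highest in NTT DC3, at 614 CPM. Thbs1 went from 789 to 92.6 CPM (-3.09) and was highest in NTT TAM_Spp1, at 4181 CPM. Dusp1 went from 337 to 93.3 CPM (-1.85) and was highest in NTT neutrophils, at 5091 CPM. Within populations, the median was -1.44 in TAM_Spp1 over 10 genes, 6 of them lower, and -0.23 in TAM_cycling over 7 genes, 2 of them lower and 1 higher. Of all genes, 12.5% were called lower in TAM_Spp1, and in TAM_cycling 4.34% lower and 4.78% higher. Elsewhere the median was -0.87 in Infl_Mono over 6 genes, -0.57 in Monocyte_1 over 8 and -0.53 in cDC2 over 7. It was -0.53 in DC3 over 5, -0.10 in NK_cells over 4 and -1.08 in cDC1 from 1 gene. In merged monocytes 3 of 11 were lower, where 6.74% of all genes were. After thinning, or with each cell weighted equally, 1 was lower there. The genes of this list came from general knowledge, but the list was fixed with earlier results of these data known.

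**Figure D4:**
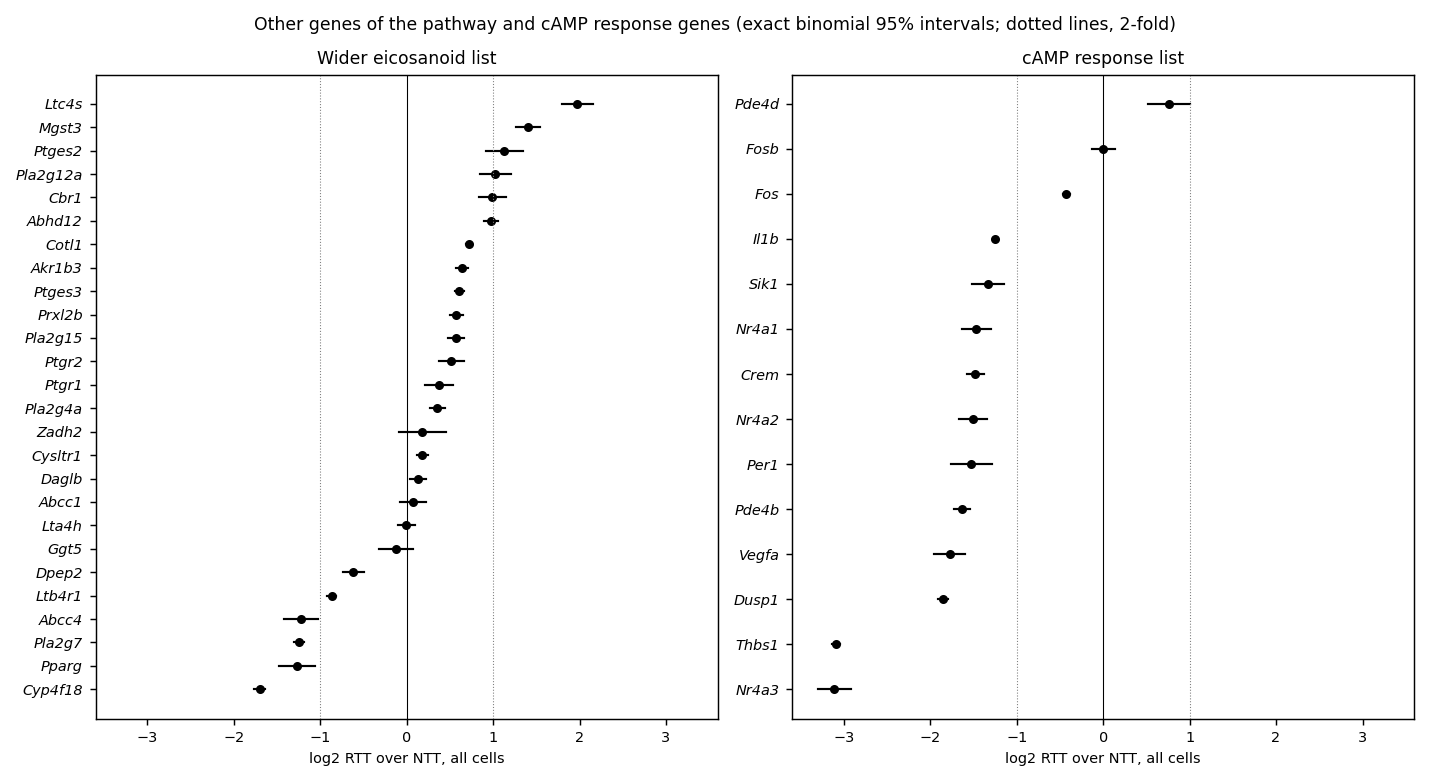
Log2 ratio of RTT over NTT over all cells (x) for the 26 other eicosanoid genes (left) and 14 cAMP response genes (right) with at least 500 UMIs, ordered by ratio (y), with exact binomial 95% intervals and dotted lines at 2-fold. Ltc4s is the highest at 1.97 and Cyp4f18 the lowest at -1.70 on the left, and 11 of the 14 genes on the right lie at or below -1.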

How the data were processed

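The authors aligned and counted reads with cellranger count (Cell Ranger 6.1.1, mm10 reference per the labels and methods), and deposited raw UMI counts for 12584 genes in 7815 cells, with ribosomal and mitochondrial genes and genes not detected in each of 3 integrated experiments removed. A deposited table gave library, total counts and population name for each cell; names were taken as given. NTT held 19634099 and RTT 44712071 UMIs, with a median of 5398 and 8336 per cell. Day 12 comes from the record; the methods text states a different day for tumour single-cell work. Of the cells, 7680 had more than the stated 1000 detected genes, and the rest were kept. No doublet caller was run; an alternative left out the 5% of cells with the most UMIs.

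UMI counts were summed per gene over cells and scaled to CPM, with exact Poisson 95% intervals. Log2 ratios of RTT over NTT carry exact binomial intervals, and a count of 0 in 1 library was set to a floor of 3 UMIs. Cells are not replicates, so there was no test and no p-value. Shares of cells were computed after thinning each cell to 2000 UMIs, leaving out shallower cells (107 NTT and 63 RTT cells), with exact Clopper-Pearson intervals. The difference in CPM over all cells was split into parts from population shares and from levels within populations with mean weights, with normal-approximation intervals from Poisson variances. The ratio step was tested on simulated counts. The merged macrophage class named in the design was not compared, because 2 of its populations led with markers of another class. Monocytes were merged although Monocyte_1 had a plasma cell gene among its leading genes. Named were the 10 members, all genes of the wider list past 2-fold over all cells, up to 3 cAMP genes in each direction and the 3 genes most like a member; Pla2g4a, Dpep2, Cysltr1 as a list gene and Ltb4r1 were named after their values were seen. Positions came from GENCODE M21 on GRCm38, whose release differs from the authors' reference, and the RefSeq start of Hpgds lies inside its GENCODE gene. RefSeq promoters were matched for 9 of the 10 members, all but Alox5ap. Of the wider list, the genes that are not in the matrix were not analysed here. Near-identical paralogues among the genes named were not checked for shared reads. The 10 members, the lists and the tests were chosen with earlier results of these data known. Python 3.11.15, numpy 2.4.6, scipy 1.17.1, pandas 2.3.3, matplotlib 3.10.9 and, for scaling alternatives, R 4.3.3 with edgeR 4.0.16 and DESeq2 1.42.0 were used. Alternatives were other scalings, gene and cell filters, thinning, per-cell weighting and populations left out; those on C1qa-high cells, Ctsk_Macro, Myofibrobl, scaling within populations and lists without neutrophils were added after the data were seen. No column of another sample was present (0 left unused).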

Additional observations from a re-analysis of the deposited data

Results flagged for a closer look

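For 3 of the members, the log2 ratio of RTT over NTT lay above 0 in some populations and below 0 in others with intervals clear of 0, and none of these differences was tested. Ptger2 stood at 1.90 in TAM_cycling and at -1.83 in cDC2, from 3 NTT UMIs in the former and 8 RTT UMIs in the latter. Hpgds stood at 4.58 in Infl_Mono, 3.55 in NK_cells and 6.02 in TAM_Spp1, but at -0.14 in TAM_cycling, and the TAM_Spp1 value was 2.72 after thinning. Without C1qa-high cells the Infl_Mono and NK_cells values of Hpgds were 0.29 and 0.03. Alox5ap stood at 0.18 in Monocyte_1, 2.21 in NK_cells, 0.99 in TAM_cycling and 0.26 in cDC2, but at -0.11 in TAM_Spp1.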

How the results depend on the processing

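No paired analysis was possible because each group holds 1 library. Over all cells, Ptgs2 stayed below -1 in every alternative run: -2.57 in cells with more than 1000 detected genes, -2.60 with at least 1500, -2.90 without the 5% of cells with the most UMIs, -1.81 without neutrophils, -2.59 without Ctsk_Macro, -2.54 with each cell weighted equally and -2.81 without the top cell of each library. Hpgds stood at 1.45 with at least 1500 genes, 2.14 without the deepest 5%, 1.65 without Ctsk_Macro, 2.17 thinned to 2000 UMIs and 2.23 with cells weighted equally. Thinned values were -0.22 for Ptger2, 0.76 for Ptger4, 2.93 for Alox5 and -0.065 for Alox5ap. Alox5ap stood at -0.048 by TMM and -0.049 by DESeq2 size factors, -0.10 without the deepest 5% and 0.11 without Ctsk_Macro, and Ptges at -1.69 without Ctsk_Macro. With no minimum the median of the members was 0.82 and that of the wider list 0.054. The wider list had 12 lower genes with no minimum, 7 with at least 100 UMIs and 2 after thinning. The cAMP list median was -1.34 without neutrophils. Directions turned in merged monocytes for Ptgs1 (-0.13) and Hpgds (-0.58) without C1qa-high cells and for Alox5ap (-0.058) with at least 1500 genes, in merged dendritic cells for thinned Hpgds (-0.42), and in the part of Hpgd from shares with NTT weights (-1.42). Other signs turned beyond the main interval where that interval included 0: thinned Ptger4 in DC3 (0.36), Ptger2 in cDC1 (-0.47), Ptgs2 in cDC2 (0.11), Hpgds in cDC2 (-1.32), Alox5ap in DC3 (-0.89) and Infl_Mono (0.17) and Ptgs2 in TAM_cycling (-0.79, also -0.79 with cells weighted equally and -2.19 without the deepest 5%); without C1qa-high cells, Ptger4 (-0.84) and Alox5ap (0.64) in Infl_Mono, Hpgds in Monocyte_1 (-1.20) and Alox5ap in DC3 (-0.93); and Alox5ap in Infl_Mono with cells weighted equally (0.21). In 25 more cases a sign turned within the main interval. The causes were not tested. TMM moved the median of all genes by -0.12 in Infl_Mono and -0.14 in DC3. Ratios on fewer than 10 UMIs in a library are limited by depth.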

Other observations

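In dendritic cells, taken as cDC1, cDC2 and DC3 together, 15 other eicosanoid genes reached 200 UMIs and 6 of them were past 2-fold higher in RTT, 0 lower, with a median log2 ratio of 0.79; of all genes, 4.83% were past 2-fold higher. Ltc4s stood at 2.99 (25 and 205 UMIs), Mgst3 at 1.47, Dpep2, a dipeptidase of the leukotriene route, at 1.44, Cysltr1 at 1.29, Pla2g12a at 1.26 and the leukotriene B4 receptor Ltb4r1 at 1.17. These 3 populations held 135, 78 and 279 NTT cells (DC3, cDC1 and cDC2) and 57, 56 and 413 RTT cells, so cDC2 made up more of the RTT sum. Within cDC2 alone, Ltc4s stood at 2.37 (1.75 to 3.05), Pla2g12a at 1.35 and Mgst3 at 1.30.

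Pparg, a nuclear receptor for prostaglandin D2 products, went from 79.0 CPM (150 UMIs) in NTT TAM_cycling to 11.4 CPM (139 UMIs) in RTT TAM_cycling. The log2 ratio was -2.79 (-3.14 to -2.45). It also stood at 74.4 CPM in NTT TAM_H2Ab1, 41.6 CPM in RTT TAM_H2Ab1 (15 UMIs in 36 cells) and 35.3 CPM in RTT NK_cells (13 UMIs in 51 cells). Ltb4r1 was past 2-fold lower in Infl_Mono (-1.20) and higher in TAM_cycling (1.86), a difference that was not tested. Dpep2 was likewise lower in the merged monocytes (-1.10) and higher in TAM_cycling (1.35).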
